A study of Homo sapiens with 4 samples.

Results

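The 10 genes of the cellular oxygen-sensing machinery were described in cells of the LASCPC-01 line under PBS and under fluoxetine. They were taken by symbol from the 16376 genes of the deposited expression table. The rule used no measured value, but the genes were chosen with earlier results of these data known. They comprise the HIF alpha subunits HIF1A, EPAS1 and HIF3A, the shared partner ARNT, the prolyl hydroxylases EGLN1, EGLN2 and EGLN3, the asparaginyl hydroxylase HIF1AN, the ubiquitin ligase subunit VHL and the coactivator competitor CITED2. All 10 had a row in the table. HIF3A fell under the filter on low values, so 9 of the 10 were among the 12663 genes tested.

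LASCPC-01 is a neuroendocrine prostate cancer (NEPC) cell line that was made with NMYC and activated AKT1, and the labels give its genotype as WT. Both groups therefore carry these oncogenes, and the cultures are of 1 line. RNA of 2 PBS-treated libraries, the control, was set against RNA of 2 libraries treated with fluoxetine, an antidepressant that inhibits serotonin reuptake, all at day 3 by the labels. The study's text gives a shorter exposure than the labels do, and the titles of the fluoxetine libraries carry the letters PP, which no source explains. The labels do not say whether the 2 libraries of a group came from separate cultures, so p-values measure the spread between these libraries, which may be technical.

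Cells sense oxygen through enzymes that use it as a substrate. With oxygen at hand, the EGLN enzymes hydroxylate prolines of the HIF alpha subunits, VHL binds the hydroxylated protein, and its ligase marks it for degradation. When oxygen or hydroxylase activity is low, HIF alpha accumulates, pairs with ARNT and switches on target genes, and some of those targets (EGLN1, EGLN3, CITED2 and HIF3A in textbook accounts) feed back on the pathway. Much of this control acts on protein stability, which RNA levels do not measure.

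The values were FPKM, in which reads on a gene are divided by its length and the library's size. The whole read numbers behind the FPKM were recovered for 99.5% of the genes above 0, at depths of 32873603 to 34831389 reads per library. The NEPC label was checked first. Of the neuroendocrine markers, DLL3 stood between 177 and 201 FPKM over the 4 libraries, NCAM1 between 44.3 and 52.0 FPKM and INSM1 between 21.7 and 24.2 FPKM, whereas CHGA, CHGB and NEUROD1 had means under 0.1 FPKM. Markers of other cell types were scarce. The 6 endothelial markers summed to at most 0.227 FPKM in any library, the 6 fibroblast markers to between 2.85 and 3.14 FPKM with PBS and 1.98 and 2.84 FPKM with fluoxetine, mostly COL1A1, and the leukocyte markers to between 2.76 and 3.99 FPKM, mostly CD68. Fluoxetine replicate 1 stood apart by gene length. Its deviation from the mean of the 4 libraries had a Pearson's r of -0.27 with log2 gene length across genes, which are not independent, against 0.04 to 0.18 in the 3 other libraries. In bulk samples, fewer cells of a type and less RNA per cell cannot be told apart.

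None of the 9 tested members passed the test, which was limma on log2(FPKM + 0.1) with p-values adjusted over all genes tested (Benjamini-Hochberg). Over all genes, 30 of 12663 (0.237%) passed. At an unadjusted p under 0.05 there was 1 member of 9, EGLN1, against 1078 of all genes. The voom form of limma on the recovered reads also called 0 members, with 3 at an unadjusted p under 0.05 against 1470 of all genes in that fit. For 2 members, EGLN1 and HIF1A, each fluoxetine library lay under each PBS library, an order that 24.8% of all genes had. The reverse held for EGLN2 and VHL, an order that 16.7% of all genes had. The members' median log2 fold change was -0.13 (-0.06 without fluoxetine replicate 1), beside -0.02 over all genes. Of the 9 estimates 6 were below 0, beside 7156 of the 12663 over all genes. Among the 3 tested feedback genes the median was -0.16, and among the 6 sensors and subunits it was -0.06.

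**Figure D1:**
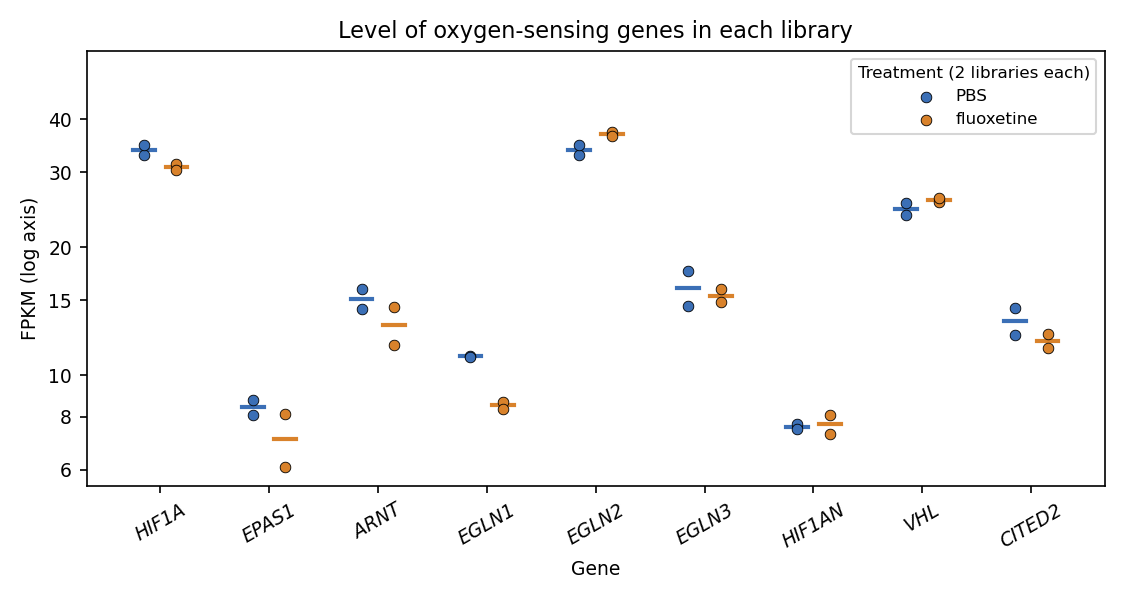
FPKM of each member (log axis) in each of the 4 libraries, with points for libraries and bars for the mean of 2. HIF3A is not drawn, and of the 9 genes plotted only EGLN1, HIF1A, EGLN2 and VHL have groups that do not overlap.

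The prolyl hydroxylases are the oxygen sensors themselves. EGLN1 (PHD2; chr1:231363751-231425044 on the minus strand, GRCh38) is regarded as the main hydroxylase of HIF1A in most cells and is also induced by HIF. It had the largest absolute log2 fold change of the 9 tested members, except without fluoxetine replicate 2, where those of EPAS1 (-0.46) and ARNT (-0.353) were larger than its own (-0.351). Its level was 11.1 FPKM in both PBS libraries, from 1601 and 1685 reads. With fluoxetine it was 8.67 and 8.33 FPKM, from 1323 and 1271 reads. Both fluoxetine values thus lay below both PBS values. Within each group the replicates differed by no more than counting error, with a replicate ratio of 0.995 for PBS and 0.960 for fluoxetine. The means were 11.1 ± 0.0358 and 8.501 ± 0.245 FPKM (SD, n = 2 each), a ratio of 0.767. The log2 fold change was -0.38 (SE 0.09, 95% interval -0.57 to -0.19), with an unadjusted p of 0.000944 and an adjusted p of 0.187 from limma. It was 64th of all genes by p. Over the 16 alternatives its log2 fold change stayed between -0.43 and -0.35, and its adjusted p from limma lay between 0.0527 and 0.822.

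EGLN2 (PHD1; chr19:40798996-40808433, plus strand) is the family member usually described as not induced by HIF. Its level was 32.9 and 34.8 FPKM with PBS and 37.3 and 36.6 FPKM with fluoxetine, from 2398 to 2879 reads. The groups did not overlap, and fluoxetine was the higher. On the log2 scale the difference was 0.13 (SE 0.07, 95% interval -0.03 to 0.29), with an adjusted p of 0.619 from limma. In GENCODE 29, 2012 of the 6577 exon bases of EGLN2 (30.6%) are shared with the same-strand readthrough gene RAB4B-EGLN2, which was not analysed here. The FPKM imply that EGLN2 was counted over a length of 2217 bases, so the shared part of the counted gene is not known. The assignment of reads between the genes is uncertain.

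EGLN3 (PHD3; chr14:33924231-34462774, minus strand) is the family member usually described as most strongly induced by low oxygen. Its level was 17.6 and 14.5 FPKM with PBS and 16.0 and 14.8 FPKM with fluoxetine. The groups overlapped, and the PBS replicates alone differed beyond counting error, with a ratio of 0.825 (95% exact binomial interval 0.766 to 0.887). The log2 fold change was -0.06 (SE 0.10, 95% interval -0.27 to 0.16, adjusted p of 0.880 from limma), and it was 0.08 without PBS replicate 1.

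The promoters of these 3 genes are shown because EGLN1 and EGLN3 are textbook HIF targets and EGLN2 is not. HIF binds the core ACGTG or GCGTG. The 160 bases before the first RefSeq start (GRCh38.p14) are given 5′ to 3′ on the strand of the gene. Capitals mark ACGTG on either strand, and the palindrome CACGTG counts on both. The window of EGLN1 is chr1:231422288-231422447 (minus), that of EGLN2 is chr19:40799031-40799190 (plus) and that of EGLN3 is chr14:33951075-33951234 (minus).
EGLN1: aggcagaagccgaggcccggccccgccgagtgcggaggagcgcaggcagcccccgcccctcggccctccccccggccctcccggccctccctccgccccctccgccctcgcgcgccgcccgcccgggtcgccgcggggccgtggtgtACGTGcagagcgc
EGLN2: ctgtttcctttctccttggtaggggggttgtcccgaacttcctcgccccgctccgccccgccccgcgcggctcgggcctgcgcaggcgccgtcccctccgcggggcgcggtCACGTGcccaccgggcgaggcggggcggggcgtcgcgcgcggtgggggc
EGLN3: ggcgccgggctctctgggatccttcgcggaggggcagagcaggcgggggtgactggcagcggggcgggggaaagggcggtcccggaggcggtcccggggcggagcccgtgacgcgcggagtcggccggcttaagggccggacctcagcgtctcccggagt
EGLN1 held ACGTG 13 bases before its start, and EGLN2 held the palindrome. No ACGTG was in the window of EGLN3. Of the 10 members, 9 had a RefSeq promoter entry of 250 bases before to 50 after the start, and VHL had none. At the first start, 3 of these 9 held ACGTG (EGLN1, EGLN2 and CITED2), where 21.4% of all 35116 promoters did. GCGTG, searched on both strands, was held by 3 (HIF1A, EPAS1 and HIF3A), where 36.5% of all promoters did. A match is a description of letters and not a site shown to bind HIF.

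The summed level of the 3 hydroxylases overlapped between groups, whereas the shares of EGLN1 and EGLN2 in it did not. The sum was 61.7 and 60.4 FPKM with PBS and 62.0 and 59.8 FPKM with fluoxetine. EGLN1 made up 18.0% and 18.3% of it with PBS and 14.0% and 13.9% with fluoxetine. EGLN2 made up 53.4% and 57.6% with PBS and 60.2% and 61.2% with fluoxetine. The differences between groups were -4.20 percentage points for EGLN1 and 5.24 for EGLN2. The difference for EGLN2 was 3.11 without PBS replicate 1 and 7.37 without PBS replicate 2. The exact two-sided permutation p was 0.333 for each, the smallest that 2 against 2 libraries allow. The share of EGLN3 overlapped between groups, from 24.1% to 28.6% with PBS and from 24.8% to 25.8% with fluoxetine. The ratio of EGLN2 to EGLN1, a level per length within each library, was 2.96 and 3.15 with PBS and 4.30 and 4.398 with fluoxetine.

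**Figure D2:**
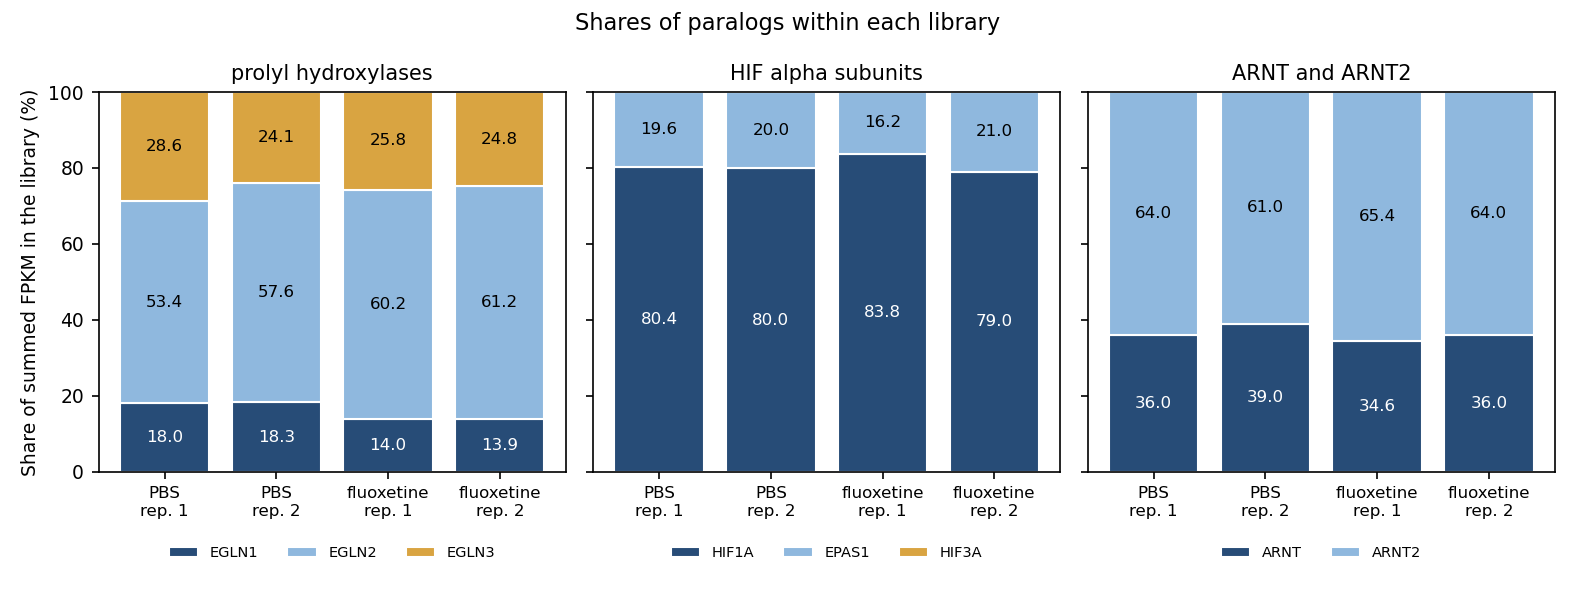
Percent of the summed FPKM of each family taken by each paralog in each of the 4 libraries, as stacked bars for the EGLN hydroxylases, the HIF alpha subunits, and ARNT with ARNT2. The EGLN1 segment is 18.0% and 18.3% with PBS and 14.0% and 13.9% with fluoxetine.

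HIF1AN (FIH; chr10:100529072-100559998, plus strand) hydroxylates an asparagine of HIF alpha and thereby blocks coactivator binding. It stood at 7.68 and 7.47 FPKM with PBS and at 7.28 and 8.08 FPKM with fluoxetine. The groups overlapped. The estimated log2 fold change was 0.02 (SE 0.10, 95% interval -0.19 to 0.23, adjusted p of 0.973 from limma). It turned to -0.03 when FPKM were rescaled to TPM, which also moved the median over all genes from -0.02 to -0.07. With the gene length trend of each library removed, the estimate for HIF1AN was 0.14. HIF1AN shares 2.33% of its exon bases with NDUFB8 on the opposite strand, and the strand setting of the counting is not given in the sources used here.

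VHL (chr3:10141008-10152220, plus strand) recognises hydroxylated HIF alpha. Its level was 25.5 and 23.8 FPKM with PBS and 25.5 and 26.1 FPKM with fluoxetine, from 3870 to 4255 reads. The fluoxetine libraries lay above the PBS libraries, but the nearest of the 2 groups were both at 25.5 FPKM to 3 digits. For VHL the log2 fold change was 0.07 (SE 0.08, 95% interval -0.10 to 0.23, adjusted p of 0.796 from limma). It was 0.12 without PBS replicate 1, 0.02 without PBS replicate 2 and 0.02 with TPM, where the median over all genes was -0.07. The subunits of the VHL ligase, from a list of partners described further on, had estimates above 0 in 5 of 5 cases, with a median of 0.18. Over all genes tested, 5507 of 12663 estimates were above 0. ELOB, an elongin that joins VHL to the cullin, had 98.3 and 82.6 FPKM with PBS and 104 and 101 FPKM with fluoxetine (log2 fold change 0.18, adjusted p of 0.580 from limma). NEDD8, the modifier that activates the cullin, had 42.6 and 30.1 FPKM against 41.8 and 44.5 FPKM (0.27, adjusted p of 0.579 from limma), and overlapped. ELOC, RBX1 and CUL2 had log2 fold changes of 0.15, 0.22 and 0.01. None of the 5 passed the test, and none had an unadjusted p under 0.05. PBS replicate 2 was the lowest library for each of the 5. The part of gene length in these estimates was not tested.

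The alpha subunits are the regulated part of the HIF dimer. HIF1A (chr14:61695513-61748259, plus strand) was the dominant one. It had 33.0 and 34.9 FPKM with PBS, from 4551 and 5084 reads, and 31.5 and 30.5 FPKM with fluoxetine, from 4590 and 4447 reads. Both fluoxetine values were below both PBS values. Its log2 fold change was -0.13 (SE 0.07, 95% interval -0.29 to 0.03, adjusted p of 0.613 from limma). The PBS replicates differed beyond counting error (ratio 1.06, 95% exact binomial interval 1.01 to 1.10).

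EPAS1 (HIF-2 alpha; chr2:46293667-46386703, plus strand) had 8.07 and 8.74 FPKM with PBS and 6.10 and 8.09 FPKM with fluoxetine. Only fluoxetine replicate 1 was low, and the fluoxetine replicates differed beyond counting error (ratio 1.33, 95% exact binomial interval 1.23 to 1.43). The log2 fold change was -0.25 (SE 0.13, 95% interval -0.53 to 0.02, adjusted p of 0.592 from limma), and -0.05 without that library. With the gene length trend of each library removed it was -0.21. Endothelial cells are rich in EPAS1, and the cultures here are of 1 prostate cancer line. The 6 endothelial markers summed to 0.218 to 0.227 FPKM with PBS and 0.122 to 0.170 FPKM with fluoxetine, with 5 of the 6 at means under 0.1 FPKM. PECAM1, TEK and CLDN5 had 0 or 1 read in each library, and VWF had 23 to 45. Whether endothelial cells had any part in the result was not tested.

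HIF3A (chr19:46297046-46343433, plus strand), whose splice forms include inhibitors of the other alpha subunits, was near 0. It had 0 and 0.00355 FPKM with PBS and 0 and 0.00354 FPKM with fluoxetine, which is 1 read in PBS replicate 2, 1 read in fluoxetine replicate 2 and 0 reads in the others. A count of 0 allows up to 3 reads, or 0.0112 FPKM in PBS replicate 1 and 0.0106 FPKM in fluoxetine replicate 1, covering counting error only. No fold change was given for it.

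Summed over the alpha subunits, the level was 41.1 and 43.6 FPKM with PBS and 37.6 and 38.6 FPKM with fluoxetine (exact permutation p = 0.333). HIF1A made up 80.4% and 80.0% of the sum with PBS and 83.8% and 79.0% with fluoxetine. The fluoxetine libraries thus lay on either side of the PBS libraries. EPAS1 took nearly all of the remainder, and the difference in its share, -1.22 percentage points, turned to 1.15 without fluoxetine replicate 1. The ratio of EGLN2 to HIF1A, which was chosen after its values were seen, was 0.996 and 0.998 with PBS and 1.19 and 1.20 with fluoxetine.

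ARNT (HIF-1 beta; chr1:150809705-150876768, minus strand) is a partner that the HIF alpha subunits share. It had 14.3 and 15.9 FPKM with PBS and 11.8 and 14.5 FPKM with fluoxetine. Fluoxetine replicate 1 was the lowest library, fluoxetine replicate 2 lay between the PBS libraries, and the fluoxetine replicates differed beyond counting error (ratio 1.23, 95% exact binomial interval 1.16 to 1.303). The log2 fold change was -0.21 (SE 0.10, 95% interval -0.43 to 0.02, adjusted p of 0.60 from limma). It was -0.06 without fluoxetine replicate 1 and -0.17 with the length trend removed. The neural relative ARNT2 was the more abundant of the pair per length, with 25.4 and 24.9 FPKM with PBS and 22.3 and 25.8 FPKM with fluoxetine (log2 fold change -0.07, adjusted p of 0.817 from limma). ARNT made up 35.99% and 39.0% of the pair with PBS and 34.6% and 35.97% with fluoxetine.

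CITED2 (chr6:139371807-139374620, minus strand) competes with HIF alpha for the coactivators EP300 and CREBBP and is itself induced by HIF. Its level was 12.5 and 14.4 FPKM with PBS and 11.6 and 12.5 FPKM with fluoxetine. The groups overlapped, since fluoxetine replicate 2 lay just above PBS replicate 1. The log2 fold change was -0.16 (SE 0.09, 95% interval -0.36 to 0.05, adjusted p of 0.625 from limma), and its value without 1 library at a time ranged from -0.26 without PBS replicate 1 to -0.05 without PBS replicate 2. The promoter of CITED2 is shown as another member with ACGTG, here in the palindrome, in the window chr6:139374649-139374808 (minus strand), with capitals as above.
CITED2: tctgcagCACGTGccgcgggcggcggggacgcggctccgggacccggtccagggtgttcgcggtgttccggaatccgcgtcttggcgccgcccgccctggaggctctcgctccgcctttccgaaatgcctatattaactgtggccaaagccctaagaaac

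**Figure D3:**
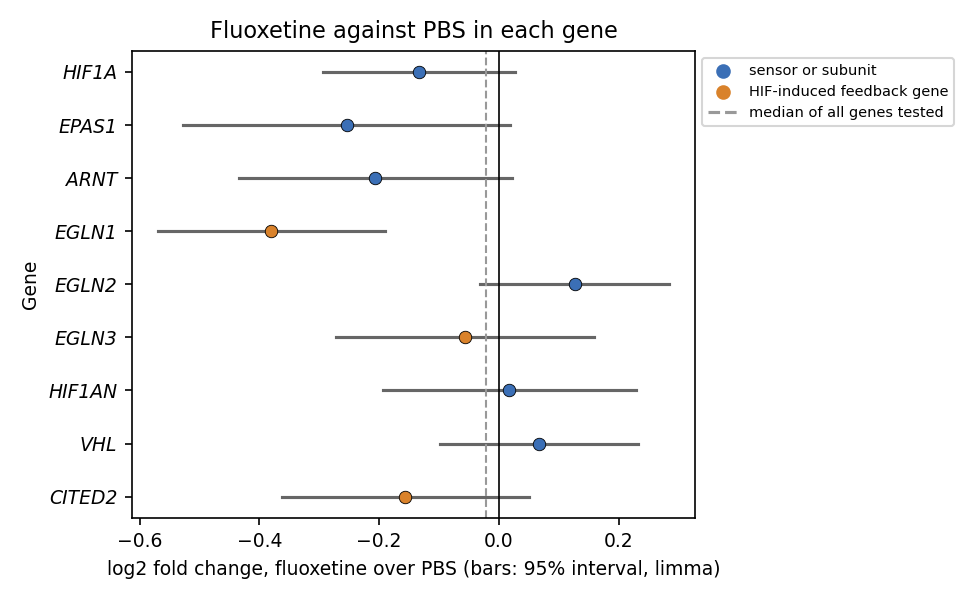
Log2 fold change of fluoxetine over PBS for the 9 tested members, with 95% intervals from limma and a dashed line at the median of all genes tested (-0.02). Only the interval of EGLN1, -0.57 to -0.19, does not include 0.

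By mean FPKM over the 4 libraries, the order of the members was EGLN2 (35.4), HIF1A (32.5), VHL (25.2), EGLN3 (15.7), ARNT (14.1), CITED2 (12.7), EGLN1 (9.79), EPAS1 (7.75), HIF1AN (7.63) and HIF3A. The library ranges overlapped between EGLN2 and HIF1A, EGLN3 and ARNT, ARNT and CITED2, EGLN1 and EPAS1, and EPAS1 and HIF1AN. These neighbours are not ordered by range. Within libraries, ARNT was above CITED2 and EGLN1 above EPAS1 in 4 of the 4. EGLN3 was above ARNT, and EPAS1 above HIF1AN, in 3 of the 4. The ranges were separate between the other neighbours. EGLN2 was above HIF1A in 2 of the 4 libraries, those with fluoxetine. FPKM depend on the gene length that the counting used. By reads, HIF1AN was number 3 of the members, since its FPKM were divided by a length of 13009 bases, the longest of the 10. Sampling of reads was not the only source of spread. The PBS replicates differed beyond the counting interval for 7 of the 9 tested members, and the fluoxetine replicates for 3 of 9.

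The genes around the sensors were taken from a list of 44 partners, regulators and related oxygenases, of which 43 were tested and 0 passed in either direction by limma (5 at an unadjusted p under 0.05, against 1078 of the 12663 genes tested). The median log2 fold change was -0.07. The 3 with the smallest p were AJUBA, a scaffold protein that links EGLN enzymes and VHL, WSB1, a subunit of another ubiquitin ligase that has been tied to VHL turnover, and KDM4B, an oxygen-dependent histone demethylase. AJUBA had 3.47 and 2.51 FPKM with PBS and 1.92 and 2.01 FPKM with fluoxetine (log2 fold change -0.57, adjusted p of 0.363 from limma). WSB1 had 25.4 and 27.1 FPKM against 22.3 and 22.4 FPKM (-0.23, adjusted p of 0.464 from limma). KDM4B had 17.3 and 15.05 FPKM against 13.3 and 13.9 FPKM (-0.25, adjusted p of 0.520 from limma). All 3 had fluoxetine values below both PBS values without passing the test. They were picked by p from these same libraries, so this order is no separate support. It was found in 12 of the 43 tested, beside 24.8% of all genes. By group, the median was -0.05 over 12 regulators, -0.15 over 9 dimer partners and coactivators, and -0.08 over 17 other oxygenases.

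The targets that HIF switches on were counted beside the machinery. Of 31 textbook targets, 27 were tested, 3 fell under the filter (CA12, LOX and SLC2A3) and EPO was not analysed here. By limma 9 fell with fluoxetine and 0 rose, where 0.213% of all genes tested fell. The count was 0 without the filter on low values or without the variance trend, 1 without either PBS library and 4 without fluoxetine replicate 2. All 27 estimates were below 0, beside 7156 of the 12663 genes tested. They had a median of -0.45 and a range of -2.04 to -0.10. In 26 of the 27 the fluoxetine values were below both PBS values, beside 24.8% of all genes. The list was chosen with earlier results of these data known, so it is no independent evidence of a direction.

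CA9, the carbonic anhydrase that is a common marker of HIF activity, fell from 1.299 and 1.92 FPKM to 0.242 and 0.390 FPKM (log2 fold change -2.04, adjusted p of 0.00704 from limma), on 13 to 103 reads per library. With a pseudocount of 1 the log2 fold change of CA9 was -0.98. Its adjusted p from limma was 0.0502 with voom on the recovered reads, 0.0864 without PBS replicate 1 and 0.235 without PBS replicate 2. NDRG1, a stress-induced gene, fell from 5.35 and 5.81 FPKM to 1.66 and 2.68 FPKM (-1.36, adjusted p of 0.0073 from limma). ALDOC, a glycolytic aldolase, fell from 14.3 and 13.7 FPKM to 5.85 and 5.82 FPKM (-1.25, adjusted p of 5.41e-05 from limma). The groups did not overlap for any of these 3 genes. ALDOC was called in 14 of 16 alternatives, NDRG1 in 12 of 16 and CA9 in 10 of 15. BHLHE40, a transcriptional repressor, PFKFB4, a regulator of glycolysis, BNIP3, a mitophagy receptor, P4HA1, a collagen prolyl hydroxylase, and HILPDA, a lipid droplet protein, fell by 0.77, 0.63, 0.57, 0.56 and 0.48 on the log2 scale. Their adjusted p-values from limma were 0.00201, 0.0106, 0.00704, 0.0170 and 0.0181. BHLHE40 was called in 12 of 16 alternatives, and each of the others in 10 of 16. The ninth, STC2, had a log2 fold change of -0.45 (adjusted p of 0.0464 from limma) and was called in 6 of 16. STC2 lies outside the naming rule and is named after its values were seen. ADM, KDM3A and VEGFA, the angiogenic growth factor, had the next smallest p-values and did not pass, with adjusted p-values of 0.0511, 0.0602 and 0.0676 from limma. VEGFA had 38.3 and 38.0 FPKM with PBS and 28.7 and 30.03 FPKM with fluoxetine. Its log2 fold change was -0.38, the same to 2 decimals as that of EGLN1. Whether the difference between the targets and the machinery exceeds its error was not tested.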

How the data were processed

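The 4 RNA-seq libraries were mapped to groups by their treatment labels. The deposited values were FPKM, made by the authors from read numbers. The submitters' processing notes name fastp, HISAT2, HTSeq and GRCh38, with no version, and the study's text names DESeq2 for the comparison of groups. The annotation and strand setting are not given in the sources used here. The labels name a stranded TruSeq kit and the methods a VAHTS kit.

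Groups were tested in R 4.3.3 with limma 3.58.1 on log2(FPKM + 0.1), with a variance trend, over genes whose mean FPKM reached 0.1, and Benjamini-Hochberg adjustment at 0.05. Fold changes on this scale slightly understate those of low genes. No count test was the main one, as FPKM are not counts. Reads were recovered as the smallest whole numbers that gave the FPKM ratios (within 0.004 of a whole number), for 16006 of 16080 genes above 0. A true number can be a multiple. Intervals of replicate ratios (exact Clopper-Pearson) and floors cover counting error only. Shares were compared by an exact permutation test. Scripts were checked on simulated data. Other steps ran in Python 3.11.15 (scipy 1.17.1, pandas 2.3.3, matplotlib 3.10.9, numpy 2.4.6). Locations came from GENCODE 29 and promoters from RefSeq.

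Deviations from the group means of libraries with equal numbers were correlated by 0.035 across genes, so the numbers were not taken to pair them. The alternatives used a pseudocount of 1 or 0.01, a minimum mean FPKM of 1 or none, TPM, quantile and median scaling, no trend, robust moderation, the replicate block and each library left out. Removal of the length trend and voom on recovered reads (10 or more per gene) were chosen after seeing the data. Named were all members, up to 8 called genes of each list by p, the next 3 by p, the VHL ligase subunits and ARNT2. The members and lists were chosen with earlier results of these data known. The result for 1 marker gene was left out of the text.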

Additional observations from a re-analysis of the deposited data

How the results depend on the processing

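The count of 0 members called held in all 16 alternatives, and so did 0 for the partner list. With 0.237% of all genes called in the main fit, a count of 0 among 9 members or 43 partners does not show a lack of change. Over all genes the count of 30 became 0 without the filter (1069 at an unadjusted p under 0.05) and 0 without the variance trend (933), 16 with quantile normalization, and 3 to 17 with 1 library left out (8 and 3 without PBS replicates 1 and 2, 17 and 12 without fluoxetine replicates 1 and 2). With the replicate block it was 64, which included all 30, but the replicate numbers did not pair the libraries by the check made. Of the 9 members, 4 had an unadjusted p under 0.05 from limma with TPM, beside 1168 of all genes. The block gave 3, beside 1405, and voom gave 3, beside 1470. The other alternatives that kept all 4 libraries gave 1 each. The targets called, 9, became 0 without the filter and 0 without the trend, 14 with the block, which kept all 9, and 1 to 6 with 1 library left out (1 without either PBS library, 4 without fluoxetine replicate 2). The members' median log2 fold change of -0.13 became -0.18 with TPM, a setting that also moved the median over all genes from -0.02 to -0.07. The members' median ranged from -0.172 to -0.0599 with 1 library left out, the latter without fluoxetine replicate 1. The sign turned for EGLN3, which ranged from -0.195 to 0.0814 with 1 library left out, and for HIF1AN, which was -0.0298 with TPM and ranged from -0.0568 to 0.0922 with 1 library left out. The 7 other tested members kept their sign. The causes were not tested. A library left alone in its group was assumed to vary like the others. With 2 libraries a group, the exact test of shares could not go below 0.333.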
